A study of Homo sapiens with 11 samples.

Results

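The genes described here are 33 genes of lysosomes and autophagy, taken by symbol from the 60605 features of a gene table from ARPE-19 cells, an established human line derived from the retinal pigment epithelium (RPE). They comprise 2 transcription factors, 5 proteins of the lysosomal membrane and of sterol export, 8 cathepsins, 4 genes of glycoside and sphingolipid breakdown, 5 subunits of the lysosomal proton pump and 9 autophagy genes. Polyadenylated RNA came from stable ARPE-19 lines that expressed an introduced open reading frame for 4 days. The control line expressed GFP, a fluorescent protein (3 libraries), and the other lines expressed Oct4, Sox2, Klf4 or all 3 factors together (OSK), with 2 libraries each. The library names of all 8 factor libraries carry the tag mC, which those of the GFP libraries lack and which the labels do not explain. Neither the species and promoter of the reading frames nor the number of clones per line is in the labels. Nor is it stated whether libraries of a group came from separate cultures, and p-values measure only the spread between these libraries.

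Lysosomes are acidic organelles in which hydrolases break down protein, lipid, sugar polymers and material delivered by endocytosis, phagocytosis and autophagy. In autophagy a membrane forms around cytoplasmic cargo, is marked with lipid-bound proteins of the LC3 family, and fuses with lysosomes. TFEB and TFE3 are basic helix-loop-helix transcription factors that bind E-box sequences in promoters of many lysosomal genes. RPE cells take up the shed tips of photoreceptor outer segments each day and digest them in lysosomes.

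Values are normalised counts, that is reads per gene divided by 1 factor for each library. The recovered depth was 15053300 to 19791775 reads per library. GFP library 1 listed 42956 features above 0 and OSK library 1 listed 32493, against 25853 to 26971 in the other 9 libraries. GFP library 1 was the lowest of the GFP libraries for 25 of the 31 genes tested, with a median log2 difference of -0.15 from the mean of the other 2. The introduced factors matched the labels. POU5F1, the gene of Oct4, stood at 67326 and 66823 in the Oct4 libraries and at 19020 and 19542 in the OSK libraries, against 252 to 276 in GFP. SOX2 stood at 29106 and 29141 in Sox2 and at 17764 and 17582 in OSK, against 43.7 to 82.4 in GFP. KLF4 stood at 24205 and 22142 in Klf4 and at 24470 and 24202 in OSK, against 45.5 to 124 in GFP. At far lower levels, some factors were also called higher than GFP in lines not labelled with them. SOX2 was higher in Oct4 (log2 1.63, limma adjusted p = 2.6e-06) and in Klf4 (1.39, limma adjusted p = 1.82e-05). KLF4 was higher in Oct4 (1.92, limma adjusted p = 6.12e-05), and POU5F1 in Klf4 (0.45, limma adjusted p = 0.0449). In Sox2, neither POU5F1 nor KLF4 was called. Of 14 RPE markers, RPE65 and TTR were at or near 0 in all libraries, at most 4.63 and 4.97. The summed level of the 14 was 33563 to 37255 in GFP, 18520 to 19090 in Oct4, 21516 to 22197 in Sox2, 26136 to 29294 in Klf4 and 16030 to 16314 in OSK. KRT8 and KRT18 held most of that sum, with means of 15930 and 5307 in GFP and 14283 and 5015 in Sox2. PMEL averaged 5147 in GFP and 140 in Sox2, TYRP1 2491 and 134, and MITF 3406 and 769, each lowest in Sox2. RDH5 averaged 75.1 in GFP, 74.7 in Sox2 and 462 in Klf4, and OTX2 averaged 1881, 1208 and 2320. The 7 fibroblast markers summed to 3025 to 4906 in GFP, 2594 to 3719 in Oct4, 7070 to 8434 in Sox2, 1014 to 1404 in Klf4 and 623 to 868 in OSK. COL1A1 made up nearly all of that sum, with means of 3856 in GFP and 7699 in Sox2. Of the others, only LUM was higher in Sox2 than in GFP (10.0 against 1.99), and THY1 went from 45.6 to 19.4. The 10 leukocyte markers summed to 196 to 283 in GFP, 108 to 116 in Oct4, 56.1 to 77.9 in Sox2, 168 to 296 in Klf4 and 50.6 to 114 in OSK. Only CSF1R among them reached 10 in every library, and PTPRC, the pan-leukocyte marker, was at most 2.24. The part of these marker levels in the results below was not tested, and in bulk RNA fewer cells of a type and less RNA per cell cannot be told apart.

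Promoters were searched for the E-box, the sequence that TFEB and TFE3 bind. RefSeq promoters, from 250 bases before to 50 bases after the annotated start, were at hand for 23 of the 33 genes, as 29 promoters in build GRCh38.p14. The E-box core CACGTG, its own reverse complement and so present on both strands, was in 6 of the 29 promoters (20.7%). It was in 9.02% of the promoters of genes tested and in 7.26% of 35116 promoters of all genes in the table. The extended form TCACGTGA, which contains that core, was in 17.2% of the 29, against 1.53% of the promoters of genes tested. The full palindrome, TCACGTGA with a G before it and a C after it, was in 6.9%, against 0.589%. In 157 promoters of other lysosome and autophagy genes, listed further on, the shares were 17.2% for the core, 7.01% for the extended form and 3.82% for the full palindrome. The 6 genes are LAMP1, MCOLN1, CTSA, CTSD, GAA and ATP6V0D1. Their last 100 bases before the start (200 for LAMP1) are shown because they carry the motif whose factors are described next. Capitals mark the motif in its longest matching form, read 5′ to 3′ on the gene's strand. The other 17 genes with a promoter at hand lack CACGTG, and they include TFEB and TFE3 themselves.
LAMP1 (chr13:113297039-113297238, plus strand): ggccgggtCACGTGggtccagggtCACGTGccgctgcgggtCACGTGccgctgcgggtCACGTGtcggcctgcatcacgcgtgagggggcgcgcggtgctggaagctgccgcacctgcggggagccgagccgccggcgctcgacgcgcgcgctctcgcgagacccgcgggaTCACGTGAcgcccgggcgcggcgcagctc
MCOLN1 (chr19:7522524-7522623, plus strand): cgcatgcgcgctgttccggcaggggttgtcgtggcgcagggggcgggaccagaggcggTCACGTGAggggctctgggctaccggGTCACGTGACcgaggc
CTSA (chr20:45891235-45891334, plus strand): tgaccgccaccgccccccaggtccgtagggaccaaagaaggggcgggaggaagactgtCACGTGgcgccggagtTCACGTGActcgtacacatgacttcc
CTSD (chr11:1763928-1764027, minus strand): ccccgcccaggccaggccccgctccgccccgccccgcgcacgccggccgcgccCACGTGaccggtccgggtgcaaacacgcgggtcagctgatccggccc
GAA (chr17:80101481-80101580, plus strand): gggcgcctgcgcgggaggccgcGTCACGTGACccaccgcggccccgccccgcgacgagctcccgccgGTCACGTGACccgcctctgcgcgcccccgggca
ATP6V0D1 (chr16:67481158-67481257, minus strand): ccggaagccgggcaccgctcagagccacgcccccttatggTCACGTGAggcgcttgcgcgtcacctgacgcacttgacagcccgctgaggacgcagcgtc
LAMP1 carries 5 copies of the core in the stretch shown, and a copy across the start makes 6. GAA holds the full palindrome at 73 and 28 bases before the start, and MCOLN1 holds it at 11 bases before. CTSD has a lone CACGTG at 44 bases and ATP6V0D1 a lone TCACGTGA at 56. A match is a description of the letters and not of binding.

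Among the 33 genes, 31 passed the filter, a value that reached 10 in 2 or more libraries. The other 2 are CTSS, the cathepsin of antigen presenting cells, with 0 to 9 reads per library, and ATP6V0D2, a pump subunit known from osteoclasts, with 0 to 2 reads. Across all 5 groups 28 of the 31 differed (limma's F test, Benjamini-Hochberg adjusted over 18828 genes), where 65.7% of all genes tested did. LAMP2, HEXA and MAP1LC3B did not, with limma adjusted p of 0.144, 0.594 and 0.193. The 28 are 90.3% of the 31, and the F test called 85.5% of 131 other genes of these pathways, listed further on. The share among genes as abundant was not computed for the F test, so no excess is read from it. Against GFP, 18 genes differed in Oct4 (9 higher, 9 lower; background 37.3% of genes tested, 20.1% higher and 17.2% lower), 17 in Sox2 (7 higher, 10 lower; background 41.6%, 21.7% higher and 19.9% lower), 15 in Klf4 (8 higher, 7 lower; background 33.5%, 17.6% higher and 16.0% lower) and 17 in OSK (11 higher, 6 lower; background 39.7%, 19.7% higher and 20% lower). These are 58.1%, 54.8%, 48.4% and 54.8% of the 31. The 11067 genes with a mean of at least 100 had shares of 51.5%, 56.3%, 46.2% and 54.2%, so the counts stood near those of genes as abundant. The 4 comparisons share the GFP libraries. Median log2 changes of the 31 were -0.07, 0.00, 0.05 and 0.17, against -0.02, -0.02, -0.02 and -0.01 over all genes tested. Without GFP library 1 the counts were 15 (6 higher, 9 lower), 16 (6 higher, 10 lower), 16 (8 higher, 8 lower) and 17 (11 higher, 6 lower), and the medians -0.07, -0.03, 0.05 and 0.11. Without Klf4 library 1 the count in Klf4 was 9. Leaving out each library in turn kept 9 of the 18 calls in Oct4, 13 of 17 in Sox2, 9 of 15 in Klf4 and 14 of 17 in OSK. Lost calls are named with their values in the paragraphs of their genes. The heat map shows every change.

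**Figure D1:**
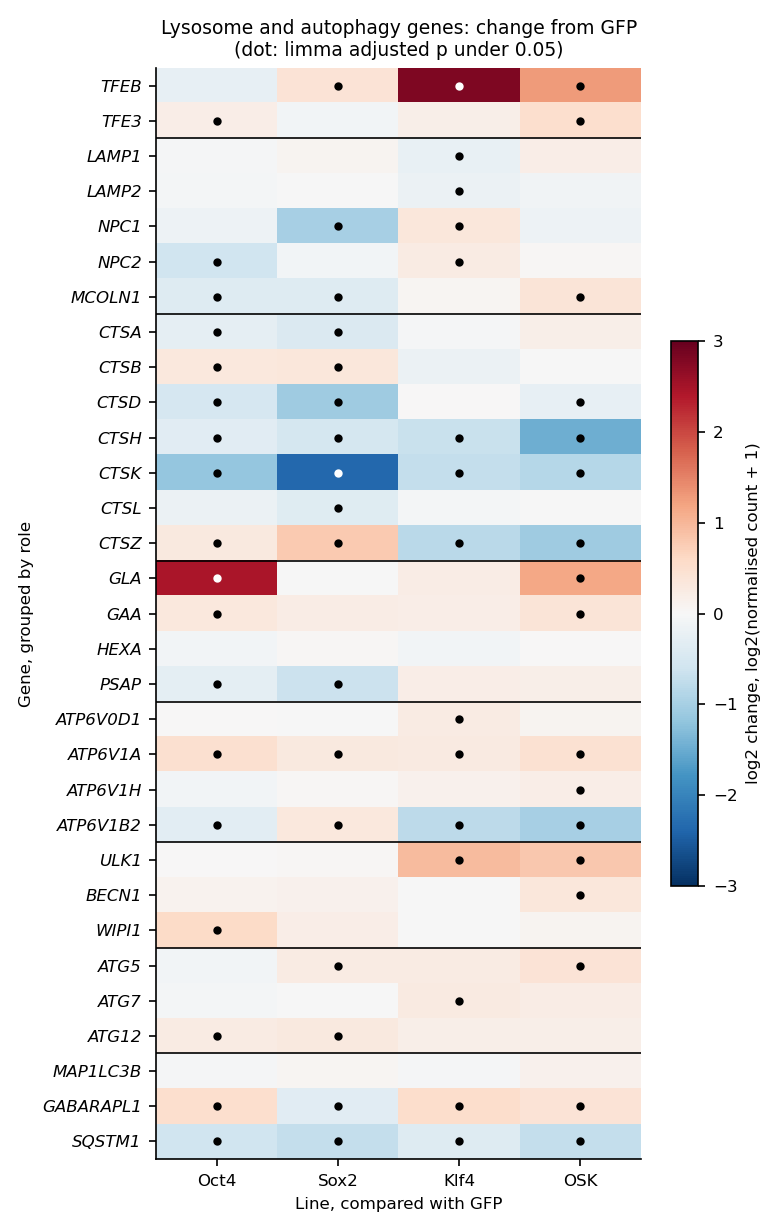
Log2 change from GFP of the 31 genes tested (rows, by role) in each line (columns), on the log2(normalised count + 1) scale, with a dot where limma's adjusted p was under 0.05. CTSK, CTSH and SQSTM1 were lower and ATP6V1A was higher in all 4 lines, and the darkest cells are TFEB in Klf4 and GLA in Oct4.

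TFEB rose in Klf4 and OSK. Its normalised counts were 113, 132 and 136 in GFP, 102 and 111 in Oct4, 201 and 143 in Sox2, 969 and 809 in Klf4, and 315 and 300 in OSK. Each Klf4 library lay above all others, the OSK libraries lay between Klf4 and the rest, and the Oct4 libraries lay below all GFP libraries. The mean in Klf4 was 700.4% of that in GFP (log2 2.80, SE 0.15, limma adjusted p = 1.13e-09), and in OSK the log2 change was 1.28 (SE 0.15, limma adjusted p = 4.3e-06). In Oct4 it was -0.25 and missed the threshold (limma adjusted p = 0.218). In Sox2 it was 0.42 (limma adjusted p = 0.0334), and the call rested on single libraries: without Sox2 library 1 it was 0.175 (limma adjusted p = 0.475), without Sox2 library 2 it was 0.66, and without GFP library 1 it was 0.34 (limma adjusted p = 0.0878). TFEB in OSK was below TFEB in Klf4, with a log2 difference of -1.52 (limma adjusted p = 4.36e-06). TFE3 was more abundant per length of all annotated exons of the gene (547 against 22.5 normalised counts per kilobase in GFP). TFE3 rose in OSK by 0.50 on the log2 scale (limma adjusted p = 2.46e-05), from 2214 to 2423 in GFP to 3285 and 3359. Its change in Oct4 of 0.19 was lost without any of 9 libraries, falling to 0.11 (limma adjusted p = 0.388) without Oct4 library 1.

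The 6 genes with CACGTG were compared with the factors. In Klf4, where TFEB was highest, their log2 changes ran from -0.22 to 0.24 with a median of 0.04, 1 higher and 1 lower. In OSK they ran from -0.24 to 0.39 with a median of 0.19, 2 higher and 1 lower. The 17 genes whose promoter at hand lacked the core, TFEB and TFE3 among them, had medians of 0.18 in Klf4 and 0.17 in OSK. These 17 were not chosen to resemble the 6 in level or length. In Oct4 the 6 had a median of -0.15 (1 higher, 3 lower) and the 17 a median of -0.04 (6 higher, 3 lower). In Sox2 the 6 had a median of -0.19 (0 higher, 3 lower) and the 17 a median of -0.01 (4 higher, 5 lower). MITF, of the TFEB family, averaged 3406 in GFP against 127 for TFEB, and its log2 changes were -0.49 in Klf4 and -1.04 in OSK. TFE3 was still more abundant per length than TFEB in Klf4 (615 against 157 normalised counts per kilobase). No relation between the level of TFEB, TFE3 or MITF and these genes was tested.

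**Figure D2:**
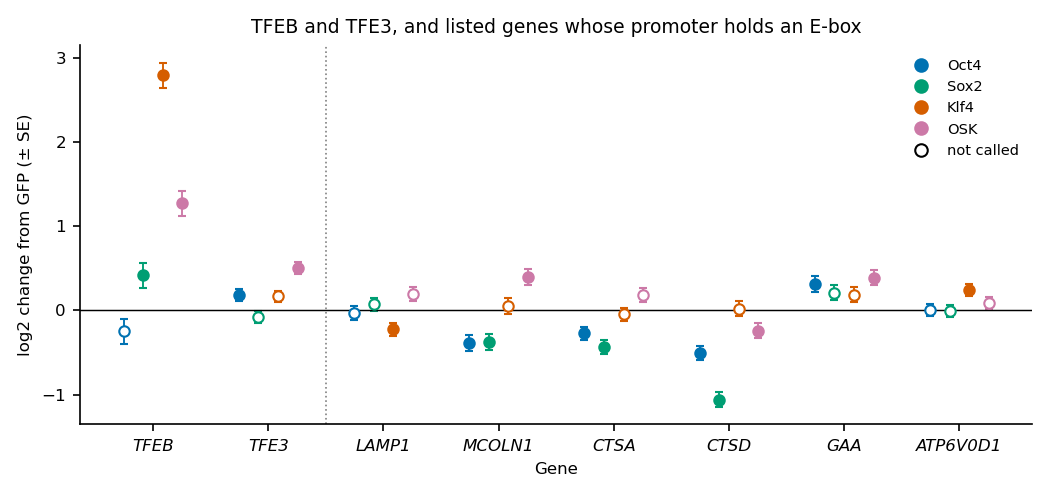
Log2 change from GFP with its SE, on the log2(normalised count + 1) scale, of TFEB and TFE3 (left of the dotted line) and of the 6 genes with an E-box in the promoter, by line, with open points where limma's adjusted p was 0.05 or more. TFEB stands at 2.80 in Klf4 while the 6 genes there lie between -0.22 and 0.24. MITF, of the same family, is not shown, and no relation between factor and gene levels was tested.

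Among the membrane and sterol genes, NPC1 fell most in Sox2. NPC1 and NPC2 together move cholesterol out of the lysosome, NPC2 as a soluble carrier and NPC1 in the membrane. NPC1 stood at 4223, 4228 and 4237 in GFP, 3675 and 3922 in Oct4, 2189 and 2057 in Sox2, 5306 and 5408 in Klf4, and 3708 and 3930 in OSK. The Sox2 libraries were below all others and the Klf4 libraries above all others. The log2 changes were -0.99 in Sox2 (SE 0.06, limma adjusted p = 3.03e-09) and 0.34 in Klf4 (limma adjusted p = 0.000479). NPC2 stood at 2977, 3233 and 3182 in GFP and at 2079 and 2089 in Oct4, with no overlap, a log2 change of -0.59 (limma adjusted p = 1.46e-06). It stood at 2919 and 2948 in Sox2 and 3204 and 3240 in OSK, and was called in neither (limma adjusted p = 0.25 and 0.636). Its rise in Klf4, to 3801 and 3651 (log2 0.25), was lost without Klf4 library 1 (log2 0.22, limma adjusted p = 0.0579). MCOLN1, a calcium channel of the lysosomal membrane, was 970 to 1041 in GFP, 843 and 706 in Oct4, 819 and 737 in Sox2, and 1353 and 1300 in OSK. Its log2 change in OSK was 0.39 (limma adjusted p = 0.0033), and it was 0.37 with limma adjusted p = 0.0515 when GFP library 1 and OSK library 1 were left out together. The Oct4 and Sox2 falls of -0.39 and -0.38 were lost without Oct4 library 2 (-0.26, limma adjusted p = 0.101) and Sox2 library 2 (-0.30, limma adjusted p = 0.0739). The structural membrane proteins LAMP1 and LAMP2 were called against GFP in Klf4 and not in the other 3 lines, at log2 changes of -0.22 and -0.17. Both calls were lost without single libraries (any of 9 for LAMP1 and any of 10 for LAMP2), with limma adjusted p of 0.277 and 0.27 without Klf4 library 1.

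The cathepsins, proteases of the lysosome, held the largest falls. CTSK stood at 2687, 2900 and 2934 in GFP, 1224 and 1322 in Oct4, 600 and 508 in Sox2, 1737 and 1703 in Klf4, and 1623 and 1497 in OSK. No other group reached the GFP range, and the Sox2 libraries were lowest of all. Its log2 changes were -1.16 in Oct4 (limma adjusted p = 1.45e-08), -2.36 in Sox2 (SE 0.08, limma adjusted p = 3.62e-12), -0.72 in Klf4 (limma adjusted p = 3.71e-06) and -0.86 in OSK (limma adjusted p = 3.53e-07). CTSH, an aminopeptidase, stood at 7881, 11020 and 9764 in GFP, 7646 and 7215 in Oct4, 6796 and 6346 in Sox2, 6020 and 5968 in Klf4, and 3450 and 3416 in OSK. The GFP libraries spread widely and still lay above every other library. CTSH fell by 1.46 on the log2 scale in OSK (limma adjusted p = 1.29e-08), and by 0.53 in Sox2 and 0.66 in Klf4. Its fall in Oct4 (-0.35) was lost without GFP library 2 (-0.24, limma adjusted p = 0.0521) or Oct4 library 2 (-0.31, limma adjusted p = 0.112).

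CTSZ, an exopeptidase, moved in both directions. It was 2062, 2757 and 2609 in GFP, 3064 and 2911 in Oct4, 4073 and 4435 in Sox2, 1450 and 1377 in Klf4, and 1263 and 1103 in OSK. Sox2 lay above and Klf4 and OSK below every GFP library. Log2 changes were 0.79 in Sox2 (limma adjusted p = 1.12e-05), -0.80 in Klf4 (limma adjusted p = 1.67e-05) and -1.06 in OSK (limma adjusted p = 5.73e-07). The Oct4 change of 0.28 was lost without any of 7 libraries, among them GFP library 1 (0.155, limma adjusted p = 0.11). CTSD, the main aspartic protease, was 9948, 12611 and 11835 in GFP, 8250 and 7809 in Oct4, 5752 and 5213 in Sox2, 11748 and 11414 in Klf4, and 9672 and 9636 in OSK. Its Sox2 and Oct4 libraries lay below the others without overlap. Its log2 fall was -1.06 in Sox2 (limma adjusted p = 7.66e-08) and -0.51 in Oct4 (limma adjusted p = 0.000243). Its OSK call (-0.24) was lost without any of 8 libraries (limma adjusted p up to 0.162). CTSD shares 36.5% of its 50-base transcript sequences with a read-through gene, which averaged 69.4 in GFP and 40.0 to 70.1 in the factor lines. How reads of the shared sequence were counted is not given in the sources used here, so the CTSD count is uncertain there. CTSB and CTSL, cysteine proteases, moved by less. CTSB rose by 0.34 in Sox2 (limma adjusted p = 0.00158), its change of 0.32 in Oct4 lost its call without Oct4 library 1 (limma adjusted p = 0.051), and CTSL fell by 0.35 in Sox2 (limma adjusted p = 0.000713). CTSA, a carboxypeptidase that also stabilises other hydrolases, fell by 0.44 in Sox2 (limma adjusted p = 0.000383), and its log2 change of -0.27 in Oct4 lost its call without GFP library 3 or Oct4 library 2 (limma adjusted p up to 0.178).

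GLA, the alpha-galactosidase that cleaves glycosphingolipids, rose in Oct4 and OSK. It stood at 107, 170 and 118 in GFP, 745 and 684 in Oct4, 126 and 129 in Sox2, 134 and 168 in Klf4, and 291 and 293 in OSK. Oct4 was above and OSK between Oct4 and all other libraries. The log2 changes were 2.46 in Oct4 (SE 0.17, limma adjusted p = 1.16e-08) and 1.17 in OSK (limma adjusted p = 3.54e-05). The difference of OSK from Oct4 was -1.29 on that scale (limma adjusted p = 3.22e-05). GAA, the acid alpha-glucosidase of glycogen, rose by 0.31 in Oct4 and 0.39 in OSK. The Oct4 call was lost without Oct4 library 1 (limma adjusted p = 0.112) and its change was 0.20 without GFP library 1, and the OSK call was lost without OSK library 1 (0.32, limma adjusted p = 0.0628). Without GFP library 1 and OSK library 1 together the OSK change of GAA was 0.20 (limma adjusted p = 0.0585). HEXA, the alpha subunit of beta-hexosaminidase, lay between 830 and 999 in all libraries and was called in no comparison with GFP. PSAP, the precursor of the saposins that help hydrolases reach lipids, was the most abundant of the 33 per length, at 27138 normalised counts per kilobase in GFP against 3668 for CTSD. It stood at 80060, 92827 and 90810 in GFP, 72971 and 70290.5 in Oct4, 57948 and 53746 in Sox2, 100568 and 100724 in Klf4, and 100211 and 97836 in OSK. Sox2 lay below every other library, a log2 change of -0.65 (limma adjusted p = 4.12e-05). PSAP in Klf4 and OSK lay above every GFP library, at log2 changes of 0.20 and 0.17, and was not called (limma adjusted p = 0.129 and 0.168). Its log2 change of -0.29 in Oct4 lost its call without any of 6 libraries (limma adjusted p up to 0.162).

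**Figure D3:**
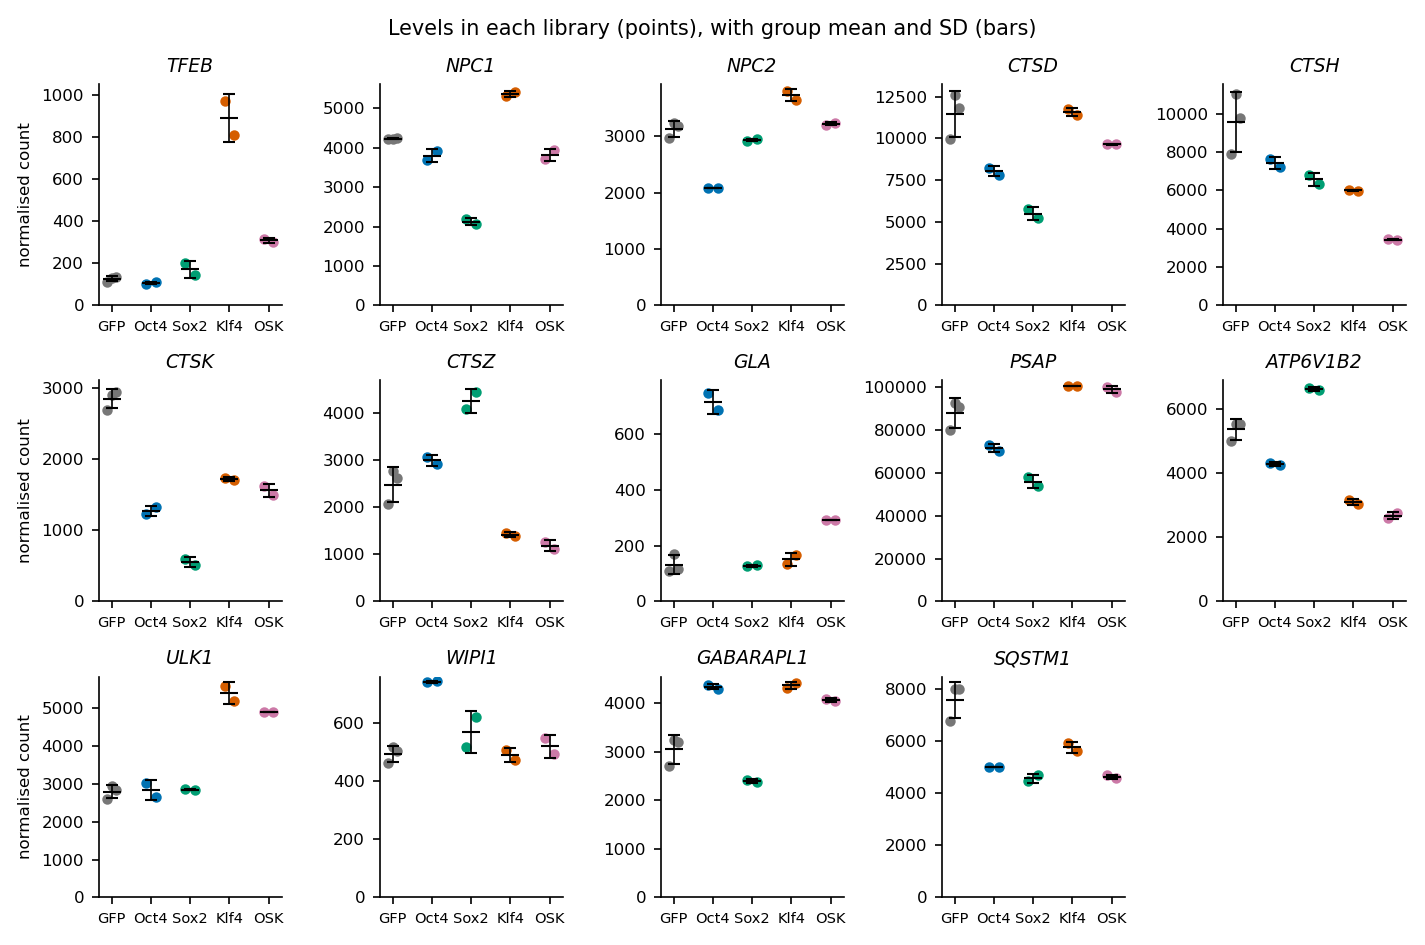
Normalised counts of 14 of the genes (each panel's axis starts at 0) in every library (points), with the mean and SD of each line (bars, n = 3 for GFP and 2 for the others). TFEB separates in Klf4, GLA in Oct4, and CTSK and CTSH lie below GFP in the other lines.

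The V-ATPase, the pump that acidifies lysosomes, showed changes of opposite sign among its subunits. ATP6V1B2, a subunit of the ATP-splitting sector, was 4999, 5547 and 5538 in GFP, 4318 and 4239 in Oct4, 6663 and 6577 in Sox2, 3160 and 3027 in Klf4, and 2589 and 2742 in OSK. The 5 groups did not overlap. It fell by 1.01 on the log2 scale in OSK (limma adjusted p = 6.36e-09), 0.79 in Klf4 (limma adjusted p = 1.54e-07) and 0.32 in Oct4, and rose by 0.31 in Sox2. ATP6V1A, its partner in the same sector, rose in all 4 lines, from 1247 to 1280 in GFP to 1764 and 1772 in Oct4, 1566 and 1521 in Sox2, 1596 and 1463 in Klf4, and 1723 and 1757 in OSK. The log2 rises were 0.49, 0.29, 0.28 and 0.46, and that in Klf4 was lost without Klf4 library 1 (0.21, limma adjusted p = 0.0683). ATP6V0D1, of the membrane sector, was 0.24 higher in Klf4 and lost its call without GFP library 3 or either Klf4 library (limma adjusted p up to 0.0845). ATP6V1H, a regulatory subunit, was 0.21 higher in OSK and lost its call without any of 7 libraries, among them GFP library 1 (0.14, limma adjusted p = 0.122) and OSK library 1 (0.17, limma adjusted p = 0.241). Without both of these it was 0.0956 (limma adjusted p = 0.39).

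Of the genes that start autophagosomes, ULK1 and WIPI1 each moved in few lines. ULK1, the kinase that starts the process, was 2599, 2946 and 2840 in GFP, 3027 and 2653 in Oct4, 2857 and 2839 in Sox2, 5600 and 5201 in Klf4, and 4891 and 4895 in OSK. Klf4 and OSK lay above all other libraries. Its log2 changes were 0.95 in Klf4 (limma adjusted p = 7.28e-08) and 0.81 in OSK (limma adjusted p = 2.81e-07). WIPI1, which binds phosphoinositide on the forming membrane, was 465, 517 and 505 in GFP and 741 and 746 in Oct4, a log2 rise of 0.59 (limma adjusted p = 0.000142). In Sox2 it was 519 and 622, in Klf4 509 and 473, and in OSK 550 and 493, with no call. It overlaps ARSG on the other strand over 24.3% of its exons, and ARSG stood at 221 in GFP and 224 in Oct4. The use of strand is not given in the sources used here. BECN1, of the lipid kinase complex, rose by 0.33 in OSK (limma adjusted p = 0.000521). Of the conjugation genes, ATG5 rose by 0.41 in OSK (limma adjusted p = 0.00324). Its change of 0.25 in Sox2 was lost without any of 9 libraries and was 0.15 (limma adjusted p = 0.4) without Sox2 library 2. ATG7, at 0.26 in Klf4, lost its call without GFP library 3 or either Klf4 library (limma adjusted p up to 0.125). On the other strand it overlaps VGLL4 over 18.1% of its exons, and VGLL4 averaged 2426 in GFP, 2631 in Oct4, 2441 in Sox2, 2069 in Klf4 and 1404 in OSK. ATG12 was 0.24 in Oct4 and 0.30 in Sox2, and lost these calls without any of 6 libraries (limma adjusted p up to 0.163) and without Sox2 library 1 (0.16, limma adjusted p = 0.239).

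GABARAPL1 and SQSTM1 changed in all 4 lines. GABARAPL1, an LC3 family protein, was 2714, 3248 and 3203 in GFP, 4389 and 4306 in Oct4, 2431 and 2376 in Sox2, 4314 and 4428 in Klf4, and 4101 and 4050 in OSK. Sox2 lay below and the other 3 lines above the GFP libraries. Its log2 changes were 0.51 in Oct4 (limma adjusted p = 4.74e-05), -0.34 in Sox2, 0.52 in Klf4 and 0.42 in OSK. SQSTM1, the p62 receptor that carries ubiquitinated cargo and is itself degraded by autophagy, was 6776, 7987 and 7995 in GFP, 5022 and 5021 in Oct4, 4460 and 4695 in Sox2, 5909 and 5608 in Klf4, and 4695 and 4584 in OSK. All 8 factor libraries lay below the 3 GFP libraries. The log2 changes were -0.59, -0.72, -0.39 and -0.71, with limma adjusted p from 9.91e-07 to 0.000693. SQSTM1 overlaps MRNIP on the other strand over 20.7% of its exons, and MRNIP averaged 1244 in GFP, 874 in Oct4, 909 in Sox2, 900 in Klf4 and 981 in OSK, also lower in each factor line. Reads of the overlap cannot be assigned to a strand here, and its part in the SQSTM1 result was not tested. MAP1LC3B, the LC3 gene read most often as an autophagy marker, lay between 2052 and 2376 and was called in no comparison with GFP.

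The OSK line was compared with each single factor line. Against Oct4, 20 of the 31 genes differed (14 higher, 6 lower; background 40.3% of genes tested, 18.4% higher and 21.9% lower, and 54.0% among genes with a mean of at least 100). Against Sox2, 17 differed (13 higher, 4 lower; background 40.5%, 20% higher and 20.5% lower, and 54.9% among the abundant genes), and against Klf4, 11 (5 higher, 6 lower; background 21.5%, 9.56% higher and 11.9% lower, and 31.0% among the abundant genes). With TMM scaling the last split was 5 higher and 4 lower. Without GFP library 1 the counts against Oct4 and Sox2 were 20 and 19. That library enters comparisons between factor lines only through the spread, which was estimated over all 11 libraries in 1 fit. Their log2 changes did not move without it, with a median against Klf4 of 0.06 in both fits. The count against Klf4 was 17 without GFP library 1, 6 without Klf4 library 1 and 7 without either OSK library. CTSH was lower in OSK than in each single factor line, with log2 differences of -1.11 from Oct4, -0.94 from Sox2 and -0.80 from Klf4 (limma adjusted p = 7.39e-07, 4.99e-06 and 6.02e-05). ATP6V1B2 was also below each of them, but its difference of -0.21 from Klf4 was lost without any of 9 libraries (limma adjusted p up to 0.253). TFE3, MCOLN1 and BECN1 were above GFP and each single factor line. Of these TFE3 lost a call without Oct4 library 2 (limma adjusted p = 0.0581) or Klf4 library 1 (limma adjusted p = 0.0539), and MCOLN1 lost its call against Klf4 without Klf4 library 1 or either OSK library (limma adjusted p up to 0.297). BECN1 lost its calls against Oct4 and Sox2 without either library of those lines or OSK library 2 (limma adjusted p up to 0.119 and 0.137). CTSK in OSK was 1.496 above Sox2 in log2 terms (limma adjusted p = 1.89e-09). NPC1 in OSK differed by 0.85 from Sox2 and by -0.49 from Klf4 in the same terms.

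Between the single factor lines, 14 genes differed between Oct4 and Sox2 (9 higher, 5 lower in Oct4; background 33.4%, 18.0% higher and 15.4% lower, and 45.9% among the abundant genes), 18 between Oct4 and Klf4 (7 higher, 11 lower in Oct4; background 41.7%, 21.8% higher and 20% lower, and 55.4% among the abundant genes) and 19 between Sox2 and Klf4 (4 higher, 15 lower in Sox2; background 40.8%, 20.1% higher and 20.7% lower, and 54.9% among the abundant genes). Without GFP library 1 these counts were 16 (11 higher, 5 lower), 22 (8 higher, 14 lower) and 20 (5 higher, 15 lower). The log2 changes were again the same, and only the estimated spread differed. Those lower in Sox2 than in Klf4 include CTSK (-1.64 on the log2 scale), NPC1 (-1.34), CTSD (-1.08) and PSAP (-0.85). GABARAPL1 was 0.85 higher in Oct4 than in Sox2 on the log2 scale, and GLA was 2.48 higher. TFEB in Oct4 differed from Klf4 by -3.04.

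Another 134 genes of the same pathways, in 5 lists, put these results in context, and 131 were tested. Their called counts were 65 in Oct4 (42 higher), 67 in Sox2 (38 higher), 54 in Klf4 (23 higher) and 63 in OSK (35 higher), or 49.6%, 51.1%, 41.2% and 48.1% of the 131. The shares over all genes tested were 37.3%, 41.6%, 33.5% and 39.7%. Among the genes with a mean of at least 100, a limit not set for the 131, they were 51.5%, 56.3%, 46.2% and 54.2%. With all libraries 23, 29, 31 and 28 were lower. Without GFP library 1 the called counts of the 131 were 66, 77, 59 and 65, with 36, 37, 19 and 34 higher and 30, 40, 40 and 31 lower. The splits by list below use all libraries. Without Klf4 library 1 the count in Klf4 was 35. Of all genes tested, 20.1% rose and 17.2% fell in Oct4, 21.7% and 19.9% in Sox2, 17.6% and 16.0% in Klf4, and 19.7% and 20% in OSK. Of 39 other autophagy genes, 17 rose and 2 fell in Oct4, 12 and 8 in Sox2, 10 and 4 in Klf4, and 12 and 5 in OSK. Of 35 other hydrolases and cofactors, 12 rose and 9 fell in Oct4, 14 and 5 in Sox2, 4 and 11 in Klf4, and 9 and 8 in OSK. Of 22 other membrane and sorting genes, 5 rose and 6 fell in Oct4, 7 and 6 in Sox2, 5 and 6 in Klf4, and 7 and 7 in OSK. Of 18 other regulators, 3 rose and 3 fell in Oct4, 1 and 8 in Sox2, 1 and 6 in Klf4, and 2 and 5 in OSK. Of 17 other V-ATPase subunits, 5 rose and 3 fell in Oct4, 4 and 2 in Sox2, 3 and 4 in Klf4, and 5 and 3 in OSK. LGMN, the asparagine endopeptidase, rose from 1249 to 1537 in GFP to 13170 and 11975 in Oct4 (log2 3.18, limma adjusted p = 7.14e-13). SCARB2, the membrane receptor that carries beta-glucocerebrosidase, rose from 4568 to 5117 in GFP to 11971 and 12323 in Oct4 (log2 1.31, limma adjusted p = 8.51e-10). VMP1, a membrane protein needed to form autophagosomes, rose by 2.02 in Oct4 and 2.08 in Sox2 on the log2 scale. CTSC, a dipeptidyl peptidase, rose in Sox2 from 336 to 500 in GFP to 1632 and 1979 (log2 2.11). HYAL1, a hyaluronidase, rose from 46.5 to 69.5 in GFP to 708 and 691 in Klf4 (log2 3.54) and 389 and 331 in OSK (log2 2.58). CTSV, a cathepsin, fell from 113 to 128 in GFP to 33.7 and 24.0 in Oct4 (log2 -2.07) and 29.2 and 30.0 in Sox2 (log2 -2.01). SORT1, a sorting receptor for hydrolases, fell by 0.80 in Klf4 and 0.98 in OSK. MITF, a factor of the TFEB family that drives pigment genes, fell by 2.15 in Sox2, from 3263 to 3603 in GFP to 790 and 748 (limma adjusted p = 4.72e-12). MITF also fell in the other 3 lines, by 0.85 in Oct4, 0.49 in Klf4 (limma adjusted p = 9.76e-05) and 1.04 in OSK on the log2 scale. The calls given here for single named genes held in each of 21 alternatives.

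**Figure D4:**
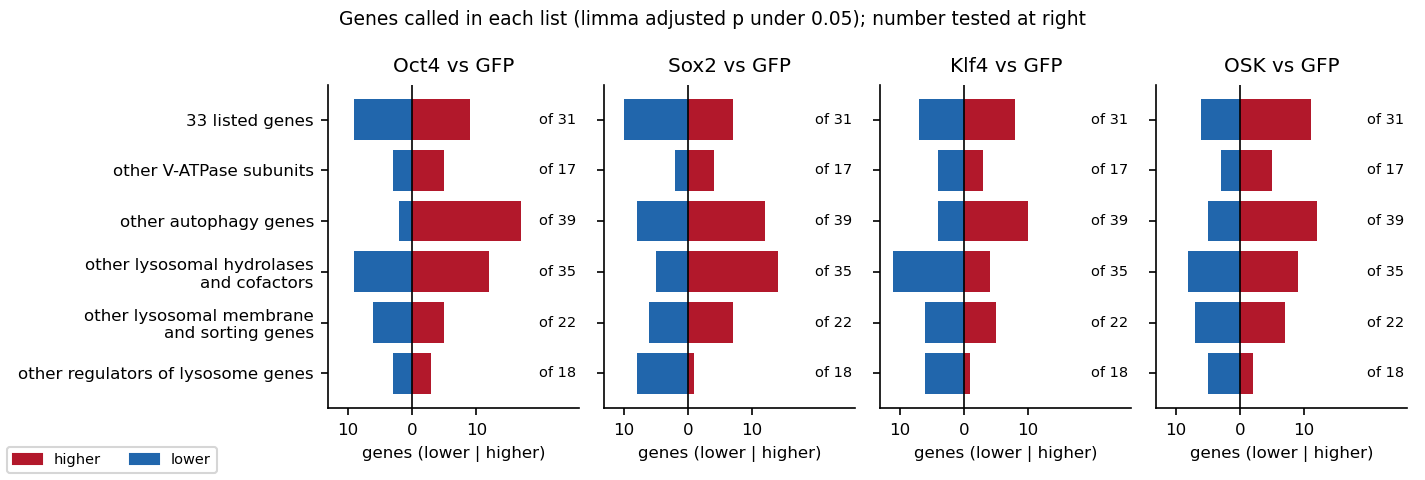
Number of genes lower (left) and higher (right) than GFP at limma's adjusted p under 0.05, in the 33 genes and in 5 lists of other pathway genes, one panel per line, with the number tested at right. Of 39 other autophagy genes 17 were higher and 2 lower in Oct4, and of 35 hydrolases 4 were higher and 11 lower in Klf4. All libraries were used. Without GFP library 1 the 131 other genes together split 36 higher and 30 lower in Oct4, and 19 and 40 in Klf4.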

How the data were processed

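Libraries were made from oligo(dT)-enriched RNA after TRIzol extraction, per the labels' protocols. The submitters' processing notes name STAR 2.7.1a and featureCounts 1.6.2 and builds of human and mouse without a role, and the annotation, strand setting and normalisation are not given in the sources used here. The deposited values are a signal in normalised counts: gene counts divided by 1 factor per library, as the values show. Dividing by the smallest step gave whole reads for at least 99.951% of nonzero values, within 0.0061, and these recovered reads were used only for depth and in alternatives. For GFP libraries 1 and 2 the step lies close to 1, and their recovered reads rest on higher values. The main test was limma 3.58.1 (R 4.3.3, eBayes with trend) on log2(value + 1), over 18828 genes whose value reached 10 in 2 or more libraries, all 11 libraries in 1 fit. P-values were Benjamini-Hochberg adjusted over all genes tested, and 0.05 was the threshold. Fold changes are on that log2 scale, which understates low genes. Tests on simulated data for OSK against GFP (18828 genes) recovered 75% of 2-fold and 56% of 1.5-fold changes. The simulation gave all genes the same dispersion, changed far fewer genes than were called here and held no deviating library. Alternatives were edgeR 4.0.16 and DESeq2 1.42.0 on recovered reads, other scaling, filters, pseudocount 4, only the groups compared, a replicate block and leaving out each library. Leaving out GFP library 1 and OSK library 1 together was chosen after seeing the data.

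The 33 genes and the gene lists were chosen with earlier results of these data known, so counts over them are descriptions. Every gene of the 33 is named. Library values are given in full for the 6 largest called changes in each comparison with GFP, and the other pathway genes named were picked, after their values were seen, from the largest called rise and fall of each list in each comparison. Promoters and motifs come from the RefSeq table, exon lengths and overlaps from GENCODE 29.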

Additional observations from a re-analysis of the deposited data

How the results depend on the processing

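Of 166 called changes of the 31 genes, 111 kept their call and 0 reversed in all 21 alternatives, and the largest of the rest was a log2 change of 0.67. Counts of called genes under the alternatives that keep all libraries, and leaving out GFP library 1 and OSK library 1 together, ran from 13 to 19 (Oct4), 15 to 17 (Sox2), 11 to 16 (Klf4) and 14 to 18 (OSK) against GFP. For OSK against Klf4 they ran from 8 to 13. Leaving out each library in turn gave 12 to 16, 15 to 17, 9 to 16 and 14 to 17 against GFP, 6 to 17 for OSK against Klf4, and 35 to 59 of the other pathway genes in Klf4 (lowest without Klf4 library 1 in both Klf4 counts). Replicate numbers did not pair the libraries in general: same-numbered deviations correlated above 0.1 in 1 of 10 pairs of groups (r from -0.07 to 0.41). That pair was GFP with OSK (r = 0.41), the groups whose library 1 listed the most features above 0. With the replicate number as a block, the counts against GFP were 14, 16, 11 and 15. In the simulated comparison of OSK with GFP, 56% of 1.5-fold changes were recovered, and 90.7% for genes with a mean of at least 100. The simulation held the same dispersion for all genes, few changed genes and no deviating library. Its rates may therefore not hold for these data, and small changes can be missed.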
